A study of Mus musculus with 5 samples.

Results

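The blood stem and progenitor transcription factors examined here were 10 genes chosen by symbol, Gata1, Gata2, Tal1, Lmo2, Lyl1, Runx1, Fli1, Erg, Gfi1b and Klf1, and all 10 were found among the 34970 gene symbols of the count table. RNA sequencing of polyA RNA had been done on 5 wild type mouse libraries, 1 for each kind of cell. MEF came from mouse embryonic fibroblasts and iPSC from induced pluripotent stem cells. BM is bone marrow, and PB is made of blood cells, which the design text calls CD45-positive, CD45 being a surface protein of leukocytes. MCC, the myeloid-like cell complex, belongs to a series whose title names fibroblasts turned directly into macrophages. The labels and the design text do not say how MCC was made, whether any factor was introduced into it, the age and strain of the animals, or whether BM was sorted. An introduced copy of a factor and the cell's own gene cannot be told apart in counts per symbol, and each MCC level below is the sum of whatever was read under that symbol. The question asked of the files was which of the 10 factors the MCC library holds.

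Blood cells arise from stem cells under transcription factors that bind the same enhancers together. A core set of 7, Tal1, Lyl1, Lmo2, Gata2, Runx1, Erg and Fli1, is found jointly at the enhancers of stem and progenitor cells. In that set the basic helix-loop-helix proteins Tal1 and Lyl1 pair with E proteins on DNA, the LIM-only protein Lmo2 bridges them to GATA factors through the adaptor Ldb1, Runx1 binds with its partner Cbfb, and Erg and Fli1 are ETS factors. Gata1, Klf1 and Gfi1b act later, in red cell and megakaryocyte precursors. Several of the 10 have other users too: endothelial cells use Tal1, Lmo2, Erg and Fli1, mast cells need Gata2, and Runx1 acts in bone and other mesenchymal cells.

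Promoter sequences were available from RefSeq on GRCm38.p6 for 8 of the 10 genes, with no entry for Lmo2 and Fli1. They are printed for the genes that separate MCC from MEF, Tal1 and Lyl1, and for a pair read at trace levels in MCC, Gata1 and Gfi1b. Each run holds the 250 bases before a transcript start, 5′ to 3′ on the gene's own strand, and none of these windows overlapped an annotated exon. Capitals mark matches on either strand to a GATA word or an ETS word. A GATA word was AGATAA, the same letters with T in first place, or either form with G in last place. An ETS word was CCGGAA or, as the other form searched, AGGAAG. The windows are chr4:115056176-115056425 (plus strand) for the first Tal1 start, chr8:84701207-84701456 (plus) for Lyl1, chrX:7967911-7968160 (minus) for Gata1 and chr2:28621983-28622232 (minus) for Gfi1b.
Tal1: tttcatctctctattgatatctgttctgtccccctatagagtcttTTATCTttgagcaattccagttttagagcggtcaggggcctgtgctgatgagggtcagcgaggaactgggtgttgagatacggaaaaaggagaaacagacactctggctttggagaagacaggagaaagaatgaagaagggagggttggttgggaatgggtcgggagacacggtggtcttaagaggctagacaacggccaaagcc
Lyl1: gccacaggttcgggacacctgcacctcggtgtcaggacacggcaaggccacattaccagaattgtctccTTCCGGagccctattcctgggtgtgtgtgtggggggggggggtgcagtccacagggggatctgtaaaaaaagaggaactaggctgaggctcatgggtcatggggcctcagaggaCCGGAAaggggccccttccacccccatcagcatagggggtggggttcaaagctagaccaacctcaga
Gata1: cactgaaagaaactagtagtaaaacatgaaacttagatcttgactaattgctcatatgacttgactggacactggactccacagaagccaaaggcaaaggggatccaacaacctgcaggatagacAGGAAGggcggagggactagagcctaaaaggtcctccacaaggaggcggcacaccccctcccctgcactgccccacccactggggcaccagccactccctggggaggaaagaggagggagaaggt
Gfi1b: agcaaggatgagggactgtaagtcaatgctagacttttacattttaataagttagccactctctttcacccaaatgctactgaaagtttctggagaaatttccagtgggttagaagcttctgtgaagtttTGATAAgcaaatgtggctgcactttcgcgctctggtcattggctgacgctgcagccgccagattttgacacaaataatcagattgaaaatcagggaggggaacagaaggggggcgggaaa

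The first Tal1 window held 1 GATA word, 205 bases before the start, and no ETS word. Lyl1 held 2 ETS words, at 181 and 67 bases before its start, and no GATA word, and Gata1 held 1 ETS word at 125 bases. Gfi1b held 1 GATA word at 120 bases and, like Gata1 and Lyl1, at least 1 E-box (CANNTG, either strand). Over all 32851 promoter windows of that length, 26.5% held a GATA word, 38.2% an ETS word and 66.2% an E-box. The matches describe these letters only. They do not sort the genes MCC holds from those it lacks, since both pairs include a gene with a GATA word and a gene with an ETS word.

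MCC held 6 of the 10 factors at 5 CPM or more, where CPM is the read count scaled to a common library size. They were Lyl1, Lmo2, Runx1, Fli1, Tal1 and Gata2. BM held 10, PB 5, MEF 2 and iPSC 2, while 30.3%, 29.3%, 30.5% and 31.7% of all gene symbols reached that level in those 4 libraries and 32.0% in MCC. All 6 in MCC belong to the core set of 7, as do all those held by PB, MEF and iPSC. The core factor below that level in MCC was Erg. The later factors Gata1, Gfi1b and Klf1 summed to 0.347 CPM in MCC against 331 CPM in BM. Their sum was 5.12 CPM in PB, 1.97 in iPSC and 0.231 in MEF. Each group has 1 library, so no replicate spread could be estimated, and every value compares single libraries with no p-value. Folds are followed by 95% exact counting intervals, which cover counting error only, as reads are not independent molecules.

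**Figure D1:**
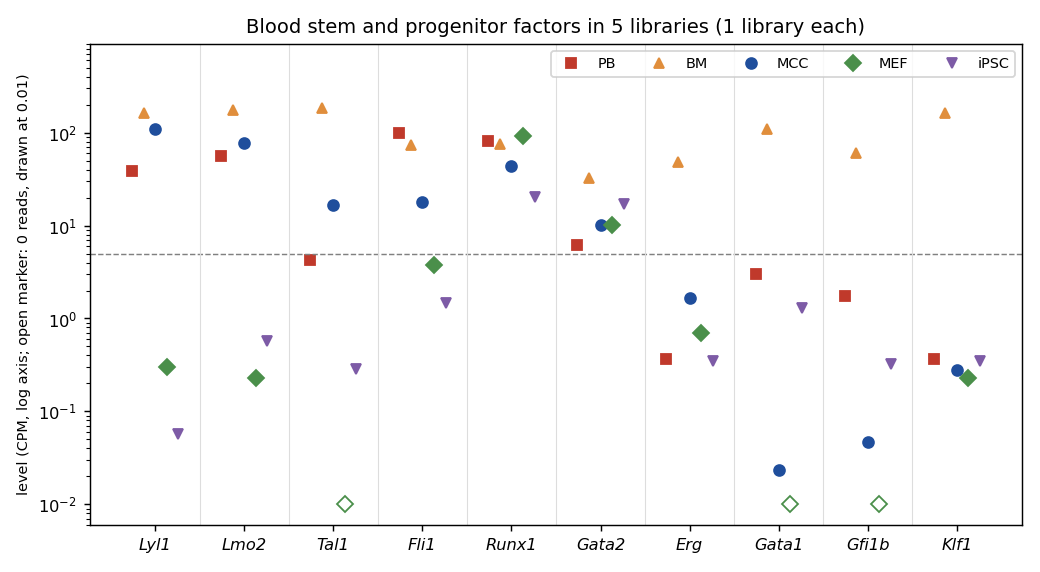
Level of each factor in the 5 libraries (CPM, log axis), with an open marker at 0.01 for 0 reads and a dashed line at 5 CPM. MCC lies close to BM for Lyl1 at 109 and 162 CPM, and close to MEF for Gata2 at 10.1 CPM in both and for Klf1 at 0.278 and 0.231 CPM.

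As a check of the labels, marker genes were read in each library. All 12 macrophage markers reached 5 CPM in MCC and in BM, 7 in PB, 0 in MEF and 1 in iPSC. All 10 fibroblast markers reached it in MCC and in MEF, 6 in iPSC, 5 in BM and 2 in PB. Their summed levels were 31273 CPM in MCC and 28024 in MEF, against 1725 in iPSC, 1254 in BM and 851 in PB. Of the BM sum Fn1 made 1132 CPM. All 8 pluripotency markers reached 5 CPM in iPSC, 1 in MCC, 1 in BM and 0 in MEF and PB. In MCC it was Sox2, at 15.1 CPM against 0.439 in MEF and 0 reads in BM and PB. In BM it was Lin28a, at 67.7 CPM against 0.0231 in MCC. Neutrophil markers summed to 62002 CPM in BM, with 5264 for PB and 5.65 for MCC. The MCC library thus held macrophage and fibroblast transcripts side by side. In such bulk samples fewer cells of a type and less RNA per cell cannot be told apart, and which cells carried each factor was not measured. The PB column carries a library code that does not run on from those of the other 4, and this cannot be told apart from the PB group.

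The helix-loop-helix and LIM-only factors Lyl1, Lmo2 and Tal1 were near absent from MEF and present in MCC. Lyl1 (chr8:84701457-84704715, plus strand, mm10) is a close relative of Tal1. MCC had 109 CPM of it, MEF 0.301 and iPSC 0.0574 (3 reads), while BM had 162 CPM and PB 38.9. PB, BM and MCC were all far above MEF and iPSC, and MCC lay between PB and BM. Lyl1 was 362-fold (212 to 681) higher in MCC than in MEF, 1.48-fold (1.43 to 1.54) lower than in BM and 2.80-fold (2.63 to 2.99) higher than in PB.

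Lmo2 (chr2:103957986-103981878, plus strand) does not bind DNA itself and holds the complex together. MCC had 76.7 CPM, MEF 0.231 and iPSC 0.574, while BM had 175 CPM and PB 55.5. As for Lyl1, MCC lay between PB and BM. Lmo2 was 332-fold (180.2 to 693) higher in MCC than in MEF and 2.28-fold (2.19 to 2.38) lower than in BM, and was 1.38-fold (1.30 to 1.47) higher than in PB.

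Tal1 (chr4:115056426-115071755, plus strand), also called SCL, is required for the formation of all blood cells. It had 717 reads in MCC and 0 in MEF, or 16.6 CPM against a floor of 3 reads, which makes it at least 239-fold higher. It stood at 186 CPM in BM, 4.25 in PB and 0.287 in iPSC. MCC thus held more Tal1 than PB and far less than BM. The fold between MCC and BM was 11.2 (10.4 to 12.1), and MCC was 3.903-fold (3.23 to 4.75) higher than PB, just short of the 4-fold rule.

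Under that rule, which asks for at least 4-fold and 5 CPM or more in the higher library, 4 of the 10 factors exceeded MEF in MCC, namely Lyl1, Lmo2, Tal1 and Fli1, and 0 were lower. Those 4 were under 5 CPM in MEF, so the rule could call them higher in MCC and not lower. The background over all 11720 genes at 5 CPM or more in MCC or MEF was 8.05% higher and 2.71% lower. The median log2 ratio of all 10 was 0.75 and that of the core set of 7 was 2.26, while those genes had a median of -0.01. These sets are unlike, since Gata1, Gfi1b, Klf1 and Erg were under 5 CPM in both libraries. Gata1 and Gfi1b had both counts set to the floor. Among the 6 factors at that level, Fli1, 4.78-fold higher, passed by the least, and Runx1, 2.11-fold lower, came nearest without passing.

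**Figure D2:**
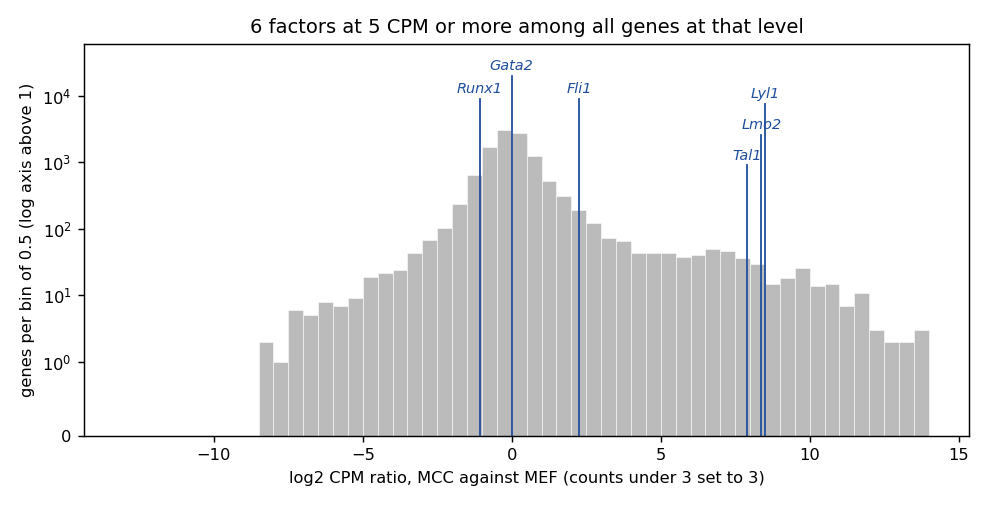
Genes at 5 CPM or more in MCC or MEF by their log2 CPM ratio (bins of 0.5, symmetric log count axis), with lines at the 6 factors that reached that level. Tal1, Lmo2 and Lyl1 lie in the right-hand tail, Tal1 at its lower bound, while Gata2 lies near 0 and Runx1 to the left of it.

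The ETS factors Fli1 and Erg, close relatives that endothelial cells also use, differed from each other. Fli1 (chr9:32422204-32542861, minus strand) was highest in PB at 98.9 CPM, followed by BM at 73.6, MCC at 17.9, MEF at 3.75 and iPSC at 1.45. MCC lay between the native blood libraries and the others. Fli1 was 4.78-fold (4.03 to 5.70) higher in MCC than in MEF, 4.11-fold (3.79 to 4.45) lower than in BM and 5.52-fold (5.10 to 5.98) lower than in PB. The call against BM was lost when the counting bound itself had to reach 4-fold.

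Erg (chr16:95359169-95586593, minus strand), which maintains adult blood stem cells, was high in BM alone. It stood at 48.4 CPM there, 1.64 in MCC, 0.694 in MEF, 0.368 in PB and 0.344 in iPSC. MCC had 71 reads and MEF 30, a ratio of 2.37 (1.53 to 3.76), and BM was 29.5-fold (23.3 to 37.9) above MCC. Of 20 endothelial genes, 5 reached 5 CPM in MCC, 4 in MEF and 8 in BM. Their sum was highest in MCC, at 251 CPM against 206 in BM, 200.5 in PB, 125 in iPSC and 106 in MEF, and most of it was Cd34 at 201 CPM, a sialomucin that fibroblasts and stem cells also carry. In MCC or MEF 5 of the 20 reached 5 CPM, as the 4-fold rule asks. Of these 2, Cd34 and Tek, were higher in MCC and 0 lower, beside 8.05% and 2.71% of all genes at that level. Pecam1, an adhesion molecule of endothelium and leukocytes, stood at 0.370 CPM in MCC and MEF alike. Endoglin (Eng), a co-receptor of the TGF-beta family, stood at 14.6 CPM in MCC and 41.7 in MEF, and the part of these transcripts in the factor levels was not tested. Other genes of the list were chosen once their values were known. The angiopoietin receptor gene Tek stood at 7.41 CPM in MCC, 1.34 in MEF and 0.761 in BM, the VEGF receptor gene Flt1 at 11.6, 23.9 and 4.64 CPM, and Egfl7 at 8.45, 7.93 and 7.93 CPM. Tie1, Emcn, Cldn5, Robo4 and Sox17 had 0 reads in MCC and 5, 52, 1, 3 and 1 reads in MEF. In PB they had 6, 0, 0, 0 and 0 reads, in iPSC 14, 0, 40, 34 and 52, and in BM 315, 14, 20, 50 and 5.

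Runx1 and Gata2 were present in MEF and no higher in MCC. Runx1 (chr16:92601466-92826149, minus strand), needed for the first stem cells to leave the embryonic endothelium, was highest in MEF at 91.5 CPM, followed by PB at 80.6, BM at 75.5, MCC at 43.4 and iPSC at 20.4. Its highest level was thus in fibroblasts, and PB and BM differed by 1.07-fold (1.012 to 1.13). MCC was 2.11-fold (1.997 to 2.23) lower than MEF and 1.74-fold (1.64 to 1.84) lower than BM. An antisense gene shares 0.881% of the Runx1 exon bases, and counts without a stated strand setting would not separate them.

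Gata2 (chr6:88193891-88207032, plus strand), a factor of stem cells and mast cells, had 32.2 CPM in BM, 17.1 in iPSC, 10.1 in MCC, 10.1 in MEF and 6.19 in PB. MCC and MEF had 436 and 437 reads, and MEF over MCC was 1.001 (0.875 to 1.15). BM was 3.19-fold (2.86 to 3.57) above MCC. Of 11 mast cell genes, 0 reached 5 CPM in MCC, 1 in MEF, 1 in iPSC, 2 in PB and 6 in BM, beside 32.0% of all gene symbols in MCC. In MCC 8 had 0 reads, while 6 did in MEF and 6 in iPSC. Their sum was 0.694 CPM in MCC, against 551 CPM in BM, and any link to the Gata2 level was not tested. Cpa3, a mast cell protease, stood at 0.162 CPM in MCC and 21.3 in BM, and Hdc, which makes histamine, at 0.393 and 329 CPM. In MEF the list summed to 11.0 CPM, of which the basophil protease gene Mcpt8 made 10.4. Most of the BM sum was Hdc, which stood higher still in PB at 587 CPM. In BM Mcpt8 added 90.5 CPM and the growth factor receptor gene Kit 83.0. Mcpt4, Tpsb2, Tpsab1 and Cma1 had 0, 1, 0 and 6 reads in BM and 2, 1, 1 and 143 in PB. These genes and Kit were chosen once their values were known.

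The red cell and megakaryocyte factors Gata1, Gfi1b and Klf1 were at trace levels in MCC. Gata1 (chrX:7959260-7978071, minus strand), the factor that drives red cell and platelet genes, had 1 read in MCC and 0 in MEF, while PB had 90, iPSC 68 and BM 4477. That is 0.0231 CPM in MCC and 110 CPM in BM, a ratio of 4749-fold (852 to 187608) with 1 read on the lower side. Gfi1b (chr2:28609450-28621982, minus strand), a repressor that acts beside Gata1, had 2 reads in MCC and 0 in MEF, while PB had 52, iPSC 17 and BM 2453. Neither gene exceeded the 3-read floor in MCC or MEF, so no fold is given between those libraries.

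Klf1 (chr8:84901928-84905291, plus strand), the red cell Krüppel-like factor that switches on adult globin, had 12 reads in MCC and 10 in MEF, while PB had 11, iPSC 18 and BM 6555. Outside BM it lay between 0.231 and 0.368 CPM. MCC and MEF had a ratio of 1.201 (0.476 to 3.10), and BM was 579-fold (331 to 1122) above MCC. PB was 437-fold (244 to 876) below BM for Klf1, although Alas2, the haem synthesis enzyme of red cells, stood at 3425 CPM in PB against 496 in BM.

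Red cell genes, many of them known targets of Gata1 and Klf1, were low in MCC too. Of 18 such genes in the table, 18 were at least 4-fold lower in MCC than in BM, beside 13.5% of 12427 genes. By the same rule 18 were lower in MEF than in BM and 17 in PB, against backgrounds of 17.0% and 9.68%. In PB 1 was higher. Any link to the factor levels was not tested. In MCC 2 reached 5 CPM. Those were Epor, the erythropoietin receptor, at 6.30 CPM, and the water channel gene Aqp1 at 99.4 CPM. In MEF they stood at 0.231 and 15.4 CPM and in BM at 91.7 and 928 CPM. Slc4a1, the anion exchanger of the red cell membrane, had 0.208 CPM in MCC and 2385 in BM.

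Many megakaryocyte and platelet genes were lower in MCC than in BM or PB, with named exceptions. Of 16, 4 reached 5 CPM in MCC, 3 in MEF, 11 in BM and 15 in PB. In those libraries 32.0%, 30.5%, 30.3% and 29.3% of all gene symbols did so. In MCC or BM 11 of the 16 reached 5 CPM, and of these 9 were lower in MCC by the 4-fold rule and 2 higher. The background was 13.5% and 15.6%. In MCC or PB 15 did so, with 13 lower and 1 higher, beside 15.4% and 21.5% of all genes at that level. The platelet chemokine gene Pf4, which macrophages also make, stood at 248 CPM in MCC, 16.4 in BM, 21.4 in PB and 0.0462 in MEF. Thbs1 (thrombospondin), made by fibroblasts as well as platelets, stood at 2078 CPM in MCC and 4741 in MEF. The integrin subunit gene Itgb3 was at 20.4 CPM in MCC, 62.2 in MEF and 91.6 in BM, and Itga2b, picked out after its values were seen because its product pairs with that of Itgb3, at 10.7, 5.25 and 51.2 CPM. In MCC 3 of the 16 genes, Gp1bb, Gp6 and Tubb1, had 0 reads, while 8 did in MEF and 4 in iPSC. Gp1bb was hardly read in any library, with 0 reads in PB, MEF and iPSC as well and 1 in BM.

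Against BM, 6 of the 10 factors were at least 4-fold lower in MCC and 0 higher, against a background of 13.5% lower and 15.6% higher. The 6 were Gata1, Gfi1b, Klf1, Erg, Tal1 and Fli1, and the other 4 were Lyl1, Lmo2, Runx1 and Gata2. Gata1, Gfi1b, Klf1 and Erg were under 5 CPM in MCC, so the rule could call them lower there and not higher. As a share of its BM level MCC held 67.4% of Lyl1, 57.5% of Runx1, 43.8% of Lmo2, 31.3% of Gata2, 24.3% of Fli1, 8.93% of Tal1 and 3.39% of Erg. The later factors were each under 0.2% of their BM level. BM holds red cell, neutrophil and lymphoid precursors with its stem cells, so these shares do not compare like cells.

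Against PB, 6 of the 10 reached 5 CPM in MCC or PB. Of these, 1 was lower in MCC by the rule, Fli1, and 0 were higher, with a background of 15.4% lower and 21.5% higher. Gata1 and Gfi1b, at 1 and 2 reads in MCC, were 130-fold (22.8 to 5198) and 37.6-fold (9.90 to 319) lower but under that level. Erg was 4.46-fold (2.35 to 9.34) higher, also under that level. Against iPSC, 6 factors reached 5 CPM in MCC or iPSC. Of these 4, Lyl1, Lmo2, Tal1 and Fli1, were higher in MCC and 0 were lower, with a background of 11.3% higher and 9.77% lower. Those 4 were under 5 CPM in iPSC, so the rule could not call them lower in MCC. Counted on total reads alone, the iPSC comparison over all genes turned from 1410 higher and 1215 lower to 1161 and 1613. The PB comparison turned from 2699 higher and 1927 lower to 2264 and 2328 with DESeq2 size factors, and the BM comparison from 1943 and 1678 to 1777 and 1819 on total reads. These comparisons share the MCC library and are not independent. Tal1 was 57.8-fold (34.8 to 104) above iPSC, Lmo2 134-fold (93.5 to 198) and Lyl1 1899-fold (649 to 9209).

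**Figure D3:**
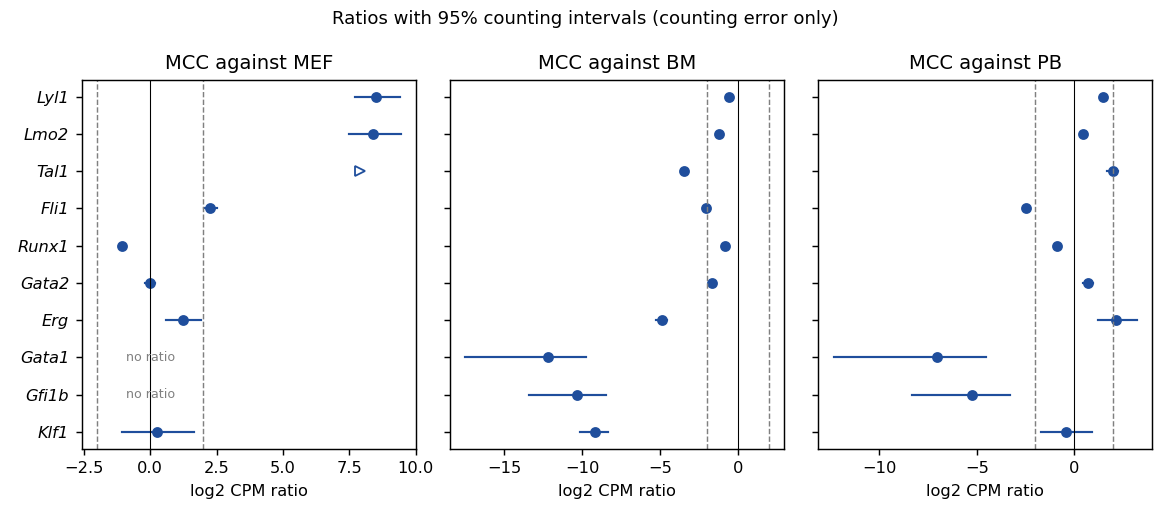
Log2 CPM ratio of each factor between MCC and MEF, BM or PB, with 95% counting intervals, dashed lines at 4-fold, an open arrowhead for a lower bound and no ratio where both libraries were at or under 3 reads. Lyl1 and Lmo2 lie far right of MEF at 362-fold and 332-fold and within the dashed lines against BM and PB, whereas Gata1, Gfi1b and Klf1 lie far left of BM.

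Comparisons without MCC give the size of these differences between the other libraries. Between BM and MEF, 8 of the 10 factors were at least 4-fold higher in BM and 0 lower, against a background of 17.0% and 15.5%, with Runx1 and Gata2 as the exceptions. All 8 were under 5 CPM in MEF, so the rule could call them in that direction only. Gata1, Tal1 and Gfi1b had 0 reads in MEF and were at least 1584-fold, 2679-fold and 868-fold higher in BM. Between PB and BM, 7 of the 10 were lower in PB and 0 higher, against a background of 9.68% lower and 6.32% higher. Those 7 were Gata1, Gfi1b, Klf1, Erg, Tal1, Gata2 and Lyl1, and the call of Lyl1 at 4.15-fold (3.901 to 4.42) was lost with DESeq2 size factors. Lmo2, Runx1 and Fli1 were not lower by the rule. Gata1, Gfi1b, Klf1, Erg and Tal1 were under 5 CPM in PB, so the rule could not call them higher there.

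Levels can be set beside each other between genes only per length, here as CPM per kb of exon from GENCODE M21. That length takes in every annotated exon base, 12.0 kb for Runx1 and 1.80 for Lyl1, whichever transcript the cells made. Ranks and ratios per kb depend on it. On that scale Lyl1 and Lmo2 led in MCC, at 60.5 and 35.4 CPM per kb, followed by Fli1 at 5.14, Tal1 at 3.79, Runx1 at 3.61 and Gata2 at 1.87. Lyl1 and Lmo2 made 54.5% and 31.9% of the summed level of the 10. In MEF Runx1 led with 68.1% of a sum of 11.2 CPM per kb, against a sum of 111 in MCC, 87.0 in PB and 444 in BM. Klf1 made 23.7% of the BM sum and 0.163% of that of MCC.

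The relatives in each family were in different proportions. Per kb, Lyl1 exceeded Tal1 15.97-fold (14.8 to 17.3) in MCC, 22.3-fold (18.5 to 26.9) in PB and 2.11-fold (2.05 to 2.19) in BM. Fli1 exceeded Erg 10.8-fold (8.49 to 14.02) in MCC, 267-fold (149 to 535) in PB and 1.51-fold (1.43 to 1.60) in BM. Of these 3 libraries, BM had the lowest value of both ratios. Lmo2 stood at 0.585 of Lyl1 (0.560 to 0.612) in MCC, 0.902 (0.872 to 0.932) in BM and 1.19 (1.099 to 1.28) in PB.

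**Figure D4:**
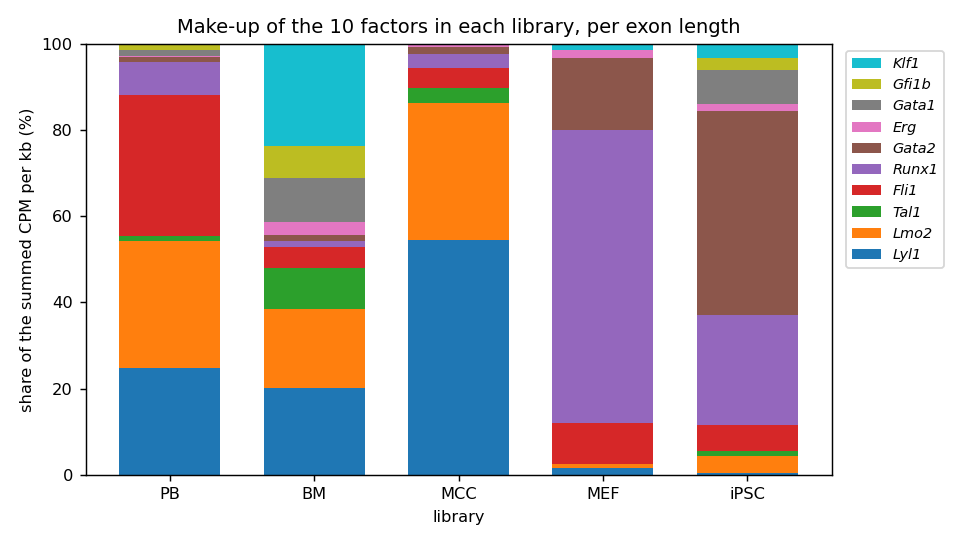
Share of each factor in the summed CPM per kb of the 10 factors, 1 bar per library. Lyl1 and Lmo2 make 54.5% and 31.9% of the MCC bar, Runx1 makes 68.1% of the MEF bar and Gata2 makes 47.4% of the iPSC bar.

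Transcripts of proteins that the factors bind were present in all 5 libraries, with few exceptions. Of 16 partner genes, 16 reached 5 CPM in MCC, 15 in MEF, 14 in BM, 14 in PB and 13 in iPSC. Ldb1, the adaptor that Lmo2 recruits, stood at 147 CPM in MCC, 139 in MEF and 164 in BM. Tcf3, an E protein partner of Tal1 and Lyl1, stood at 160, 171 and 278 CPM, and Cbfb, the partner of Runx1, at 71.6, 108 and 112 CPM. Between MCC and MEF these 3 partners differed far less than Lyl1, Lmo2 and Tal1 did.

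By the rule, 8.05% of all genes at 5 CPM or more were higher in MCC than in MEF and 2.71% lower. Of the 16 partners, 1 was higher and 0 lower. It was Cbfa2t3, also called ETO2, a co-repressor of the Tal1 complex. MCC had 7.36 CPM and MEF 0.0925, while BM had 49.98, PB 57.6 and iPSC 2.03. It was 79.6-fold (30.8 to 294) higher in MCC than in MEF and 6.79-fold (6.03 to 7.67) lower than in BM. Zfpm1, also called FOG1, the cofactor of Gata1, stood at 12.5 CPM in MCC, 36.8 in MEF and 245 in BM, which was lower in MCC than in BM by the rule and neither against MEF. Its relative Zfpm2 and the Cbfa2t3 relative Runx1t1 were at 5.09 and 16.6 CPM in MCC, 9.23 and 19.0 in MEF and 0.0491 and 1.105 in BM. The median log2 ratio of the 16 partners was -0.27 against MEF and 0.11 against BM.

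Other transcription factors of blood stem and progenitor cells divided in MCC. Of 24, 14 reached 5 CPM in MCC or MEF. Of these, 6 passed the rule upwards between MEF and MCC and 0 downwards, against the background of 8.05% and 2.71%. By the rule for naming, they included Spi1, which encodes the myeloid factor PU.1, at 261 CPM, Cebpa, a factor of granulocytes and monocytes, at 154, and Ikzf1, a lymphoid and stem cell factor, at 24.9. The other 3, Hhex, Prdm16 and Nkx2-3, were chosen once their values were known. Hhex, a homeobox factor of blood and endothelium, had 16.5 CPM in MCC and 0.185 in MEF, Prdm16 12.8 and 3.17, and Nkx2-3 5.74 CPM and 0 reads. Myb, which progenitors need in order to divide, had 0 reads in MCC against 153 CPM in BM, and Gfi1, a relative of Gfi1b, had 0.0231 CPM against 64.0. Both were chosen once their values were known, as was Mecom, a stem cell factor, at 3.77 CPM in MCC and 10.9 in MEF.

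Surface receptors of stem and progenitor cells were divided as well. Kit and Flt3, the growth factor receptors of progenitors, had 0 reads in MCC, against 83.0 and 35.7 CPM in BM. Both receptors were chosen once their values were known. Cd34 stood at 201 CPM in MCC, 18.4 in MEF and 36.6 in BM, and Ly6a (Sca-1), which fibroblasts also carry, at 897, 238 and 22.0 CPM. Cd93, a receptor of myeloid and endothelial cells, was at 34.3 CPM in MCC, 0.832 in MEF and 126 in BM. Of 14 such genes, 7 reached 5 CPM in MCC or MEF and 11 in MCC or BM. By the 4-fold rule 4 were higher in MCC than in MEF and 0 lower, beside 8.05% and 2.71% of all genes at that level. Against BM 4 were higher and 5 lower, beside 15.6% and 13.5%.

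**Figure D5:**
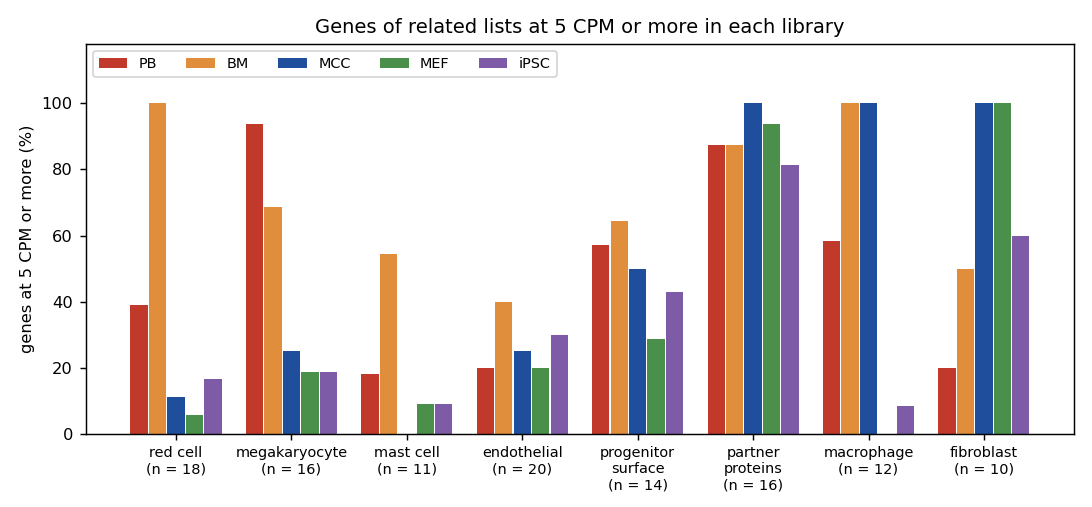
Percentage of the genes of each list at 5 CPM or more, 1 bar per library, with the number of genes under each name. In MCC the macrophage, fibroblast and partner lists are at all of their 12, 10 and 16 genes, whereas 2 of 18 red cell and 0 of 11 mast cell genes reach that level.

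Genes with a like pattern were sought as those whose log2(CPM + 1) differed least from a factor in the library where the difference was largest, over 5 libraries and 12923 named genes. Lmo2 and Lyl1 were within 0.57 of each other in every library, closer than either was to any other gene searched. For Lmo2 the nearest other genes were Card9 at 0.69, Btk at 0.79 and Cd300lb at 0.95, and for Lyl1 they were Clec4a2 at 0.80, Tnfaip8l2 at 0.98 and Snx20 at 1.11. Nothing was that close to Tal1, for which Lbp came first at 1.29, then Clec5a at 1.55 and Fmo5 at 1.56. Runx1 was nearest to Etv6 at 0.54, Leprotl1 at 0.55 and Pik3ca at 0.59. For Gata2 the nearest were Dsn1 at 0.39, Alms1 at 0.42 and Lancl2 at 0.53, and for Fli1 they were G0s2 at 0.58, Gpsm3 at 0.66 and Sfxn5 at 0.76.

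The factors that were high in BM alone had other neighbours. Klf1 was nearest to Rhag at 0.37 and to Cldn13 and Ms4a3, both at 0.40. Gfi1b was nearest to Ache at 0.28, then Samd11 at 0.54 and Smim5 at 0.56. Gata1 came nearest to Abca13 at 0.66, Chdh at 0.72 and Cebpe at 0.82, and Erg to Mylk3 at 0.77, Abcg4 at 0.92 and Fn3k at 0.95. With 5 libraries these likenesses describe levels only.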

How the data were processed

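The authors deposited unnormalized whole-number read counts for each gene symbol. The submitters' processing notes name STAR, featureCounts and mm10; their versions, the annotation and the strand setting are not stated. Library totals were 30078366 to 47557598 per library; 3 reads, the floor, are 0.0574 to 0.100 CPM. CPM used library sizes scaled by TMM over all 5 libraries (edgeR 4.0.16, R 4.3.3); other steps used Python 3.11.15, numpy 2.4.6, pandas 2.3.3, scipy 1.17.1 and matplotlib 3.10.9. Counts under 3 were set to 3 for calls, and intervals are Clopper-Pearson, conditional on the 2 counts. The arithmetic was tested on simulated data. DESeq2 1.42.0 size factors were among the alternatives. 0 columns were left unused.

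Factors and lists were chosen with earlier results of these data known. From each list, the 2 genes highest in MCC and the 2 highest in any one other library were named, with all partner genes open to naming; 3 like genes were named per factor, leaving out predicted genes. Ahsp, Icam4 and Mrgprb2 were not matched in the table. Exon lengths and gene positions came from GENCODE M21 (mm10), promoters from RefSeq (GRCm38.p6). Some genes of the lists are not reported here.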

Additional observations from a re-analysis of the deposited data

How the results depend on the processing

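No paired analysis was possible because each group has 1 library, and no replicate could be left out. Of 121 recounts of the factors under other settings, 108 stayed within 1.5 times the count reported. These include counts that were 0 in both, and single calls changed within that range. Gata2 and Lmo2 became lower in MCC than in BM with a 2-fold rule. Fli1 lost its calls against MEF and BM with an 8-fold rule. With a minimum of 20 CPM, 2 factors were higher in MCC than in MEF and 2 higher than in iPSC, Lyl1 and Lmo2 in both. With a 2-fold rule, 1 factor, Runx1, was lower in MCC than in MEF and 2, Tal1 and Lyl1, were higher than in PB; with an 8-fold rule 0 were lower than in PB. With no minimum level, 1, Erg, was higher and 3, Gata1, Gfi1b and Fli1, were lower in MCC than in PB. With that setting 2, Gata1 and Gfi1b, were lower than in iPSC. At 20 CPM in place of 5, MCC held 3 factors, MEF 1 and iPSC 1; at 1 CPM, PB held 8 and iPSC 4. The cause was not tested beyond the settings themselves, which move genes near a limit across it. Other scalings moved all ratios between 2 libraries together, by at most 0.39 on the log2 scale (iPSC, total counts), by 0.28 between MCC and PB and by 0.14 between MCC and BM; 0 of 58 factor ratios changed sign. Counting limits precision for Gata1 and Gfi1b in MCC, at 1 and 2 reads.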

Other observations

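Of 18 paralogs of the factors, 8 reached 5 CPM in MCC, 10 in MEF, 11 in BM and 10 in PB. In MCC or MEF 10 of the 18 reached 5 CPM. Of these, 0 passed the 4-fold rule upwards between MEF and MCC and 1 downwards, beside 8.05% and 2.71% of all genes at that level. The lower gene was Ets1, an ETS factor of lymphocytes and mesenchymal cells. It stood at 8.49 CPM in MCC, 92.9 in MEF, 198 in BM and 1358 in PB. Ets2, another ETS factor, stood at 45.2 CPM in MCC and 76.5 in MEF, and the Krüppel-like factors Klf3 and Klf6 at 93.5 and 88.6 CPM in MCC and 74.8 and 152 in MEF. Runx2, the bone factor, had 16.2 CPM in MCC and 37.6 in MEF, and Runx3 2.11 and 8.16 CPM, so that Runx1, Runx2 and Runx3 were each lower in MCC than in MEF by less than 4-fold. Both Runx relatives were chosen after their values were seen.

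Transcripts of the 4 Id genes were read next; their proteins bind E proteins, the partners of Tal1 and Lyl1, and keep them off DNA. Id3 stood at 105 CPM in MCC, 180.2 in MEF, 9.55 in BM and 20.02 in PB, and Id2 at 43.2, 19.0, 83.3 and 102.8 CPM. Id1 was highest in iPSC at 153 CPM and stood at 25.6 in MCC and 47.2 in MEF. Id4, chosen once its values were known, stood at 25.2 CPM in MCC, 9.76 in MEF and 0.835 in BM, with 0 reads in PB. Of the 4 genes, 0 passed the 4-fold rule between MCC and MEF in either direction, while 2, Id3 and Id4, were higher in MCC than in BM, against backgrounds of 8.05%, 2.71% and 15.6%.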
